A study of Mus musculus with 4 samples.

Results

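The genes described are 10 that encode acute-phase and neutrophil-linked secreted proteins: Saa1, Saa2, Saa3, Lcn2, Hp, Orm1, Itih4, Cp, S100a8 and S100a9. The list was drawn up with earlier results of these data known, its genes were matched by symbol, and all 10 were found among the 17335 genes measured by RNA-Seq in gonadal white adipose tissue (gWAT). AD1KO mice carried floxed Dnmt1 and adiponectin-Cre, which deletes Dnmt1, the maintenance DNA methyltransferase, in adipocytes, while cells in gWAT that do not express adiponectin kept the gene. Their controls were fl/fl littermates with intact Dnmt1. Mice of both groups were female and had been fed a high-fat diet (HFD) for 18 weeks. Their ages were not stated. Equal amounts of RNA from 4 animals were pooled in each group and each pool gave 1 library, so no difference had a replicate check and none was tested. Levels are FPKM, fragments scaled to transcript length and library size, and can be compared between genes.

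Acute-phase proteins are plasma proteins whose synthesis, mostly in liver, changes during inflammation, under control of interleukin 6 and interleukin 1 through STAT3, NF-kB and C/EBP factors. Adipose tissue also makes several of them, and haptoglobin, serum amyloid A3, lipocalin 2 and orosomucoid are known products of fat cells. S100A8 and S100A9 form calprotectin, a calcium- and zinc-binding complex that fills the cytosol of neutrophils and is also made by monocytes. Lipocalin 2 is stored in neutrophil granules and is made by many epithelia as well.

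Most of the 10 genes were higher in AD1KO gWAT in FPKM. None was when both libraries were scaled to the summed adipocyte markers, where 4.8% of all genes were. A log2 ratio of AD1KO over fl/fl of at least 0.5 in either direction was called, after 0.01 FPKM had been added. By this measure Saa1, Saa3, Hp, Orm1, Itih4 and S100a8 were higher, 6 of 10, against 14.3% of the 15839 genes with at least 0.1 FPKM in 1 library. Cp and S100a9 were lower, 2 of 10, against 19.1% of those genes. Saa2 and Lcn2 were not called. The median log2 ratio was 0.58 over the 10 genes and -0.04 over all genes with enough signal. None of the 10 reached a log2 ratio of 1 in either direction, which 5.75% of all genes did upward and 8.95% did downward. Together these genes took 0.309% of estimated reads in fl/fl and 0.497% in AD1KO. Hp alone held 88.5% and 89.8% of that share.

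**Figure D1:**
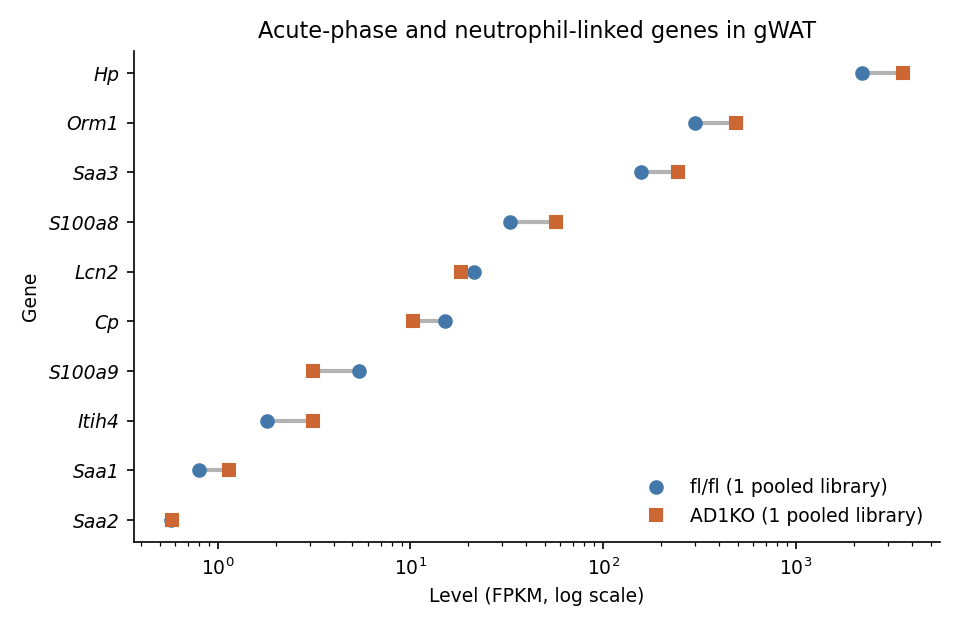
Level of each of the 10 genes in the fl/fl and the AD1KO library (FPKM, log axis), with 1 point per pooled library. Levels ran from 0.57 FPKM for Saa2 to 2212 FPKM for Hp in fl/fl, and the points of S100a8 and S100a9 moved apart, from 32.7 and 5.40 FPKM in fl/fl to 57.3 and 3.13 FPKM in AD1KO.

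Dnmt1 itself was at 6.99 FPKM in fl/fl and 3.33 FPKM in AD1KO (log2 ratio -1.07). Esr1, the estrogen receptor gene at the center of the study, was at 4.82 and 8.44 FPKM. The adipocyte hormone gene Adipoq was abundant in both libraries, at 1911 and 3318 FPKM, as the tissue label requires. Reads per gene were estimated from the steps between low FPKM values, and they summed to 17808448 in fl/fl and 17677828 in AD1KO. From these reads each log2 ratio was given an exact 95% counting interval, which covers counting error only and not the spread between animals. The whole interval lay above 0.5 for Saa3, Hp, Orm1 and S100a8, 4 of 10 genes against 4.18% of all genes, and below -0.5 for 0 of 10, against 8.37%.

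**Figure D2:**
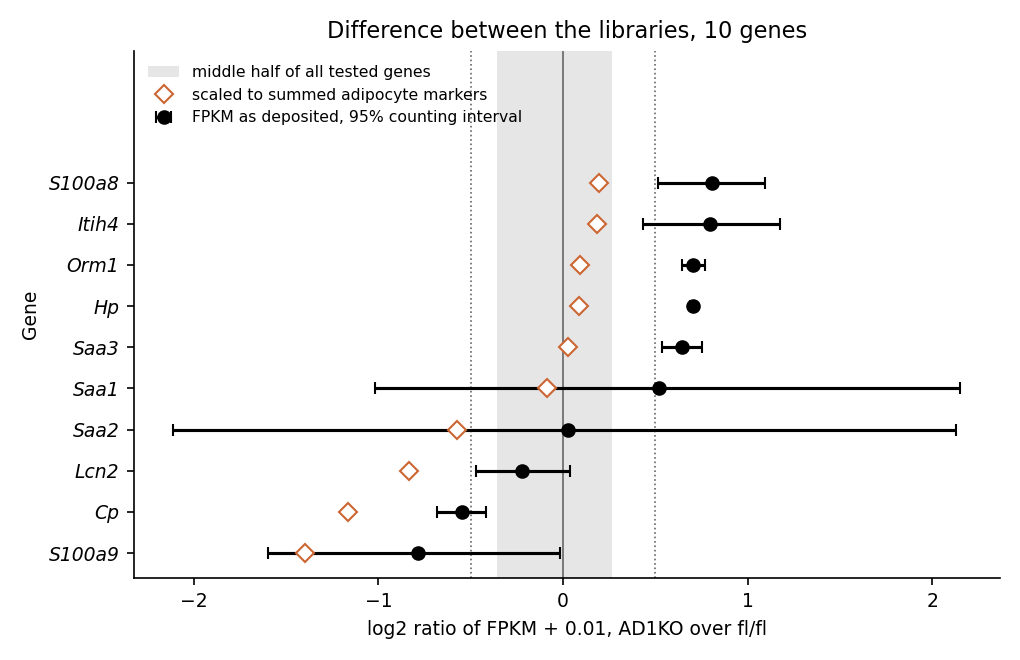
Log2 ratio of AD1KO over fl/fl for each of the 10 genes, as black points with 95% counting intervals. The grey band runs from the lower to the upper quartile of all genes, -0.36 to 0.27, and the open diamonds give the ratio after scaling to the summed adipocyte markers, where the genes higher in FPKM sit between -0.09 and 0.19.

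Serum amyloid A proteins bind high-density lipoprotein and attract leukocytes. Saa1 and Saa2 encode the main circulating forms, made in liver, whereas Saa3 is expressed mainly outside it. Saa3 was at 156 FPKM in fl/fl and 244 FPKM in AD1KO, from 1142 and 1773 estimated reads. Its level was 1.56-fold higher in AD1KO (log2 ratio 0.64, interval 0.53 to 0.75), and its rank among all genes went from 563 to 379. The liver forms were close to the limit of detection. Saa1 was at 0.80 and 1.15 FPKM, from 7 and 10 reads, and although its log2 ratio of 0.52 passed the threshold, the interval of -1.02 to 2.15 held 0, and with a pseudocount of 0.1 FPKM the ratio came to 0.47 and was no longer called. Saa2 was at 0.57 and 0.58 FPKM, from 5 reads in each library, with a log2 ratio of 0.02 and an interval of -2.11 to 2.13. A difference in either gene was therefore not detectable at this depth. In FPKM, Saa3 exceeded Saa1 by 196-fold in fl/fl and by 212-fold in AD1KO.

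The transcripts of Saa1 and Saa2 are 94.4% identical over 602 aligned bases and share 9.17% of the 50-base stretches of Saa1, so their few reads may have been split between them. Their sum was 1.37 and 1.73 FPKM, with a log2 ratio of 0.33 and an interval of -0.86 to 1.56. Saa3 is 76.0% identical to Saa1 over its aligned bases and shares 1.62% of those stretches, and the sum over all of Saa1, Saa2 and Saa3 kept the log2 ratio of Saa3, 0.64. The 250 bases upstream of the RefSeq start sites are given 5′ to 3′ on the gene's strand to show how alike the regions of Saa1 and Saa2 are and how they differ from that of Saa3. They lie in mm9 at chr7:53998351-53998600 (minus strand), chr7:54006953-54007202 (plus strand) and chr7:53971047-53971296 (minus strand), immediately before the genes' first exons, and capitals mark a match to the C/EBP motif TTGCNNAA on either strand.
Saa1: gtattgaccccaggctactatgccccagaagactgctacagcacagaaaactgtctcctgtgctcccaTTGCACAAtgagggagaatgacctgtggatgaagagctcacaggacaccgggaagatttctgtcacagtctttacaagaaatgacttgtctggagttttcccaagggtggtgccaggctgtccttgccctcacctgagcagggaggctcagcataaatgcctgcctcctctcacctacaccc
Saa2: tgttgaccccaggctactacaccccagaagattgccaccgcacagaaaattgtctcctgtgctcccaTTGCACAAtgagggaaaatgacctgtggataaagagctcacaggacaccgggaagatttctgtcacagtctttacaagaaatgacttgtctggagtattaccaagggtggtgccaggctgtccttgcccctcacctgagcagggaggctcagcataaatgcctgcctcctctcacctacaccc
Saa3: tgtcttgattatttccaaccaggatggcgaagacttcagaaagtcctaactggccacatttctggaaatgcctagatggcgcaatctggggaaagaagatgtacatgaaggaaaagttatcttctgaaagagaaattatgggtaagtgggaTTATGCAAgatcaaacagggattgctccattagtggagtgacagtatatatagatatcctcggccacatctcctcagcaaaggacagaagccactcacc
Over the promoter entries, which run on for 50 bases past the start site, Saa1 and Saa2 were 96.0% identical across 299 aligned bases. The C/EBP match lay 182 bases before the start of Saa1, 183 bases before that of Saa2 and, on the opposite strand, 99 bases before that of Saa3.

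Haptoglobin binds free hemoglobin, orosomucoid is an immunomodulatory carrier of small molecules, and ITIH4 belongs to the inter-alpha-trypsin inhibitor heavy chains. All 3 genes were higher in AD1KO FPKM, by similar amounts and from very different levels, but not on the adipocyte-marker scale. Hp was at 2212 FPKM in fl/fl and 3599 FPKM in AD1KO and moved from rank 26 to rank 10 of all genes. Orm1 was at 299 and 488 FPKM. Their log2 ratios were 0.70 (interval 0.69 to 0.72) and 0.71 (interval 0.65 to 0.77), so the FPKM of Hp remained 7.39 and 7.37 times that of Orm1. Itih4 was expressed at a low level, 1.80 and 3.13 FPKM from 97 and 168 reads, with a log2 ratio of 0.79 and an interval of 0.43 to 1.18. Orm1 has near copies in Orm2 and Orm3, its transcript being 91.0% identical to that of Orm2 with 20.4% of 50-base stretches shared. The sum of Orm1, Orm2 and Orm3 was 313 FPKM in fl/fl and 508 FPKM in AD1KO (log2 ratio 0.70).

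Ceruloplasmin, the copper-carrying ferroxidase of plasma, was lower. Cp was at 15.2 FPKM in fl/fl and 10.4 FPKM in AD1KO, from 1121 and 762 reads, which is 1.46-fold lower. Its log2 ratio was -0.55, and the interval of -0.68 to -0.41 crossed the threshold. Heph, which encodes the related membrane ferroxidase hephaestin, was at 15.4 and 24.4 FPKM (log2 ratio 0.66), opposite in direction to Cp. Among all 16 genes listed for iron and copper handling, 3 were lower and 4 higher, with a median log2 ratio of 0.03. Ftl1, the ferritin light chain, went from 7462 to 4743 FPKM, and Slc11a1, a metal transporter of phagocytes, went from 91.0 to 34.3 FPKM, log2 ratios of -0.65 and -1.41.

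Lipocalin 2 binds bacterial siderophores and so withholds iron. Lcn2 was at 21.3 FPKM in fl/fl and 18.3 FPKM in AD1KO, from 277 and 237 reads. Its log2 ratio of -0.22 was not called, and the interval of -0.47 to 0.04 held 0. The promoter entry of Lcn2 holds 1 C/EBP match, TTGCTCAA, 216 bases before the start site. Of 7 other lipocalin genes, 3 were lower and 2 higher. Rbp4, the retinol carrier secreted by adipocytes, was at 293 and 704 FPKM (log2 ratio 1.27), and Apod, which carries small lipids, was at 38.9 and 17.2 FPKM (log2 ratio -1.18).

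The calprotectin genes moved in opposite directions in FPKM, and on the adipocyte-marker scale S100a9 was lower and S100a8 was not called. S100a8 was at 32.7 FPKM in fl/fl and 57.3 FPKM in AD1KO, from 159 and 276 reads. Its log2 ratio of 0.81, the highest of the 10 genes, had an interval of 0.52 to 1.09. S100a9 was at 5.40 and 3.13 FPKM, from 40 and 23 reads, and its log2 ratio of -0.78, the lowest of the 10, had an interval of -1.60 to -0.02. These intervals did not overlap. The FPKM of S100a8 was 6.06 times that of S100a9 in fl/fl and 18.3 times in AD1KO, although the products of both genes work as one complex. Of 12 other S100 genes, 3 were lower and 3 higher, with a median log2 ratio of -0.04. S100a11, the most abundant of them, was at 2494 and 3051 FPKM without a call, and S100a4, a gene of leukocytes and fibroblasts, was at 281 and 171 FPKM (log2 ratio -0.72).

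S100a8 and S100a9 are neighbours on chromosome 3, separated by 22.6 kb and read from opposite strands. Their upstream 250 bases are shown because the genes differ in direction, from chr3:90472743-90472992 (plus strand) and chr3:90499644-90499893 (minus strand) of mm9, with capitals for the TATA motif TATAAA in S100a8 and the C/EBP motif TTGCNNAA in S100a9.
S100a8: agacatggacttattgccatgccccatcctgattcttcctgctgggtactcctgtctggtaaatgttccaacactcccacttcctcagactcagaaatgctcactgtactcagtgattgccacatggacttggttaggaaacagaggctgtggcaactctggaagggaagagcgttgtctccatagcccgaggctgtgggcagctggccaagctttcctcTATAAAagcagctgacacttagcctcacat
S100a9: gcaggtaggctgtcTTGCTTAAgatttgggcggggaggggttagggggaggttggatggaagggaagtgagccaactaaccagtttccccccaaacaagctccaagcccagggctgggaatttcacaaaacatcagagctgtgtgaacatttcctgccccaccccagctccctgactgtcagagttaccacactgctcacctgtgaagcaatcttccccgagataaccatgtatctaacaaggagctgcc
S100a9 also has a TATAAA match, which begins at the start site itself and so lies outside the bases shown. The TATA match of S100a8 lay 30 bases before its start and the C/EBP match 236 bases before that of S100a9.

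RefSeq promoter entries, made on GRCm38.p6 and each matched exactly to mm9, were found for 8 of the 10 genes. The C/EBP motif TTGCNNAA was present in 5 of 8 (Saa1, Saa2, Saa3, Lcn2 and S100a9), against 9.03% of the promoters of 11650 measured genes. Those 11650 leave out 1 chromosome, which carries none of the 10 genes. TATAAA was present in 3 of 8 against 8.12%, and the STAT motif TTCNNNGAA in 1 of 8, Itih4, against 7.04%. The TATAAA match of Itih4 was on the opposite strand and began 3 bases before the start site. That of S100a8 lay 30 bases before the start, and that of S100a9 began at the start itself. The NF-kB motif, searched as a fixed pattern of 10 bases, was found in 0 of 8 against 26.2%. Sites that depart from that pattern were not searched for, so this count does not show that NF-kB sites were absent. Both strands were searched, and no matches overlapped. All 8 promoters held few CpG dinucleotides, the substrate of Dnmt1, with 2 to 5 in 300 bases. The median over the 11650 promoters was 19, and 15.6% held 5 or fewer. The genes with a C/EBP match included Saa3, which was higher, S100a9, which was lower, and Lcn2, which was not called.

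Other genes listed as acute-phase, not all of them for plasma proteins, were mostly higher as well. The list was not split into proteins that rise and proteins that fall during inflammation, so its counts do not give the direction of an acute-phase response. Of 41 such genes, 29 were higher and 6 lower, with a median log2 ratio of 0.72, and their summed level was 2391 FPKM in fl/fl and 3754 FPKM in AD1KO. The whole interval was past the threshold for 15 of the higher genes and all 6 of the lower ones. Trf, which encodes the iron carrier transferrin, was at 513 and 777 FPKM (log2 ratio 0.60). Mt2, which encodes a metal-binding metallothionein found inside cells, was at 231 and 639 FPKM (log2 ratio 1.47). The relatives of the 10 genes followed them in part. Saa4, from 7 and 15 reads, had a log2 ratio of 1.07 with an interval that held 0, and Itih1 and Itih3 had log2 ratios of 0.98 and 0.86, all at levels under 1 FPKM. Among the lower genes were members of the Serpina3 family of protease inhibitors. Serpina3f fell from 22.9 to 1.04 FPKM. Serpina3g, whose product acts inside cells, fell from 95.1 to 8.10 FPKM, while Serpina3n was at 297 and 451 FPKM. Of 21 annotated acute-phase response genes outside the 10, a set taken after the data had been seen, 8 were higher and 6 lower, with a median log2 ratio of 0.30. Lbp, which encodes the carrier of bacterial lipopolysaccharide, had the highest level of that set, at 166 and 280 FPKM, and the log2 ratios of its genes reaching 1 FPKM in either library ran from -1.29 for Il1rn to 1.28 for F2.

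**Figure D3:**
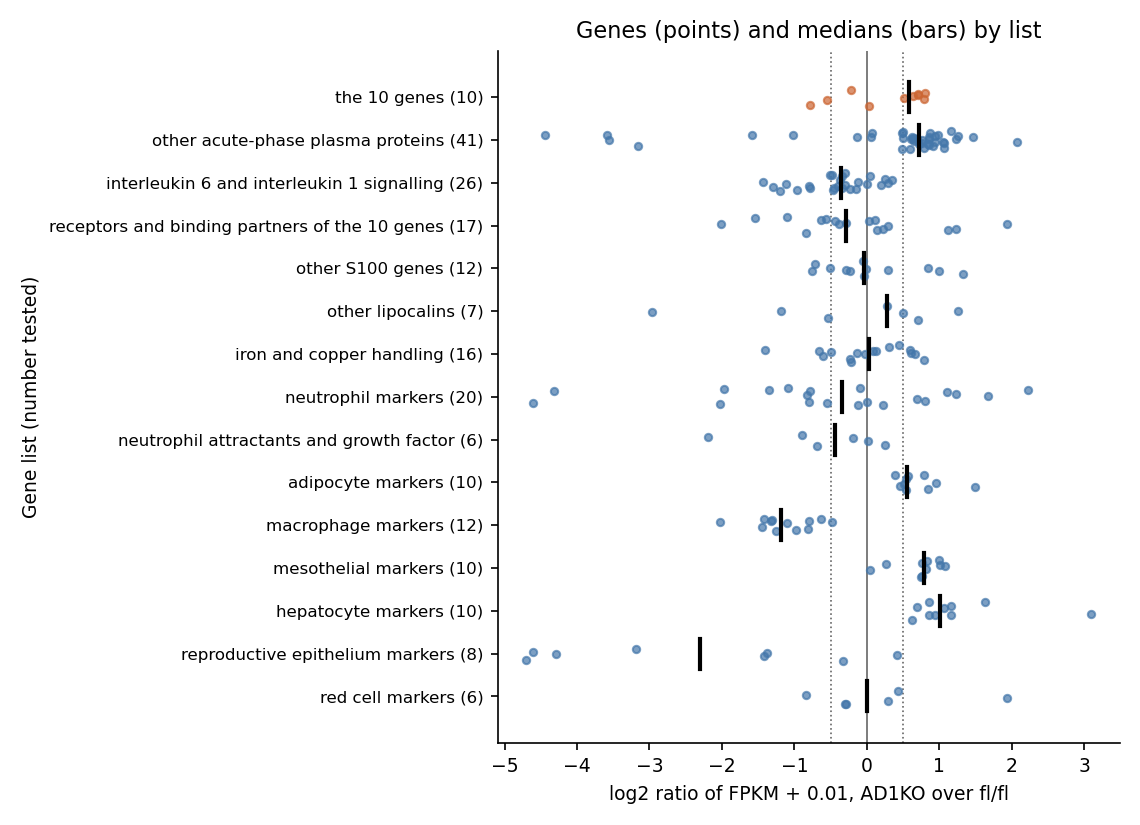
Log2 ratios of AD1KO over fl/fl for the 10 genes and for each related gene list, with 1 point per gene and a bar at the median of the list. Medians were 0.58 for the 10 genes, 0.72 for other acute-phase proteins, 0.56 for adipocyte markers and -1.18 for macrophage markers.

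No gene listed for the cytokine signalling that drives an acute-phase response was called higher. Of 26 genes of interleukin 6 and interleukin 1 signalling, 8 were lower and 0 higher, against 19.1% and 14.3% of all genes. Their median log2 ratio was -0.36, and the whole interval lay below -0.5 for 5 of the 8 lower genes. Il6 was at 0.22 FPKM in both libraries, from 4 reads each, with an interval of -2.42 to 2.43, too wide to show a difference. Tnf was at 4.34 and 1.60 FPKM (log2 ratio -1.43), and Socs3, a feedback inhibitor induced by STAT3, was at 11.02 and 5.06 FPKM (log2 ratio -1.12). Cebpa, a C/EBP factor of adipocytes and hepatocytes, was the most abundant gene of that list, at 205 and 260 FPKM, and was not called.

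Receptors and binding partners of the 10 products showed no shared direction, with 6 of 17 lower, 3 higher and a median log2 ratio of -0.29. Fpr2, the formyl peptide receptor to which serum amyloid A binds, was at 6.06 and 1.49 FPKM (log2 ratio -2.02). Tlr4, a receptor for calprotectin, was at 6.14 and 4.17 FPKM (log2 ratio -0.56). Cd163, the macrophage receptor for haptoglobin bound to hemoglobin, was at 5.39 and 6.62 FPKM and was not called. For lipocalin 2, the receptor gene Slc22a17 was at 7.19 and 8.40 FPKM, also without a call, and Lrp2 was at 0.28 and 0.62 FPKM (log2 ratio 1.12).

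Genes that mark neutrophils did not move as 1 group. Of 20 with enough signal, 10 were lower and 6 higher, with a median log2 ratio of -0.34. The whole interval was past the threshold for 4 of the lower genes (Ltf, Ly6c2, Hdc and Csf3r) and 3 of the higher ones (Wfdc21, Prtn3 and Mmp9). Not all of these are particular to neutrophils. The summed level of the list was 181 FPKM in fl/fl and 233 FPKM in AD1KO. That sum rested on Wfdc21, at 117 and 204 FPKM. Of the granule genes, Mpo, Camp and Ngp were near 0. Mpo was listed at 0 in fl/fl and had 2 reads in AD1KO, Camp had 1 read in each library, and Ngp had 1 and 5 reads. Elane had 7 and 15 reads, and Prtn3 was at 1.96 and 6.25 FPKM (log2 ratio 1.67). The receptor gene Csf3r was lower, at 5.27 and 2.47 FPKM, and Cxcr2, at 0.31 and 0.17 FPKM, had an interval that held 0 (-2.18 to 0.44). Retnlg, at 1.61 and 0.93 FPKM, and Il1r2, at 1.64 and 0.94 FPKM, passed the threshold downward, but both intervals held 0. Ltf, which encodes lactoferrin of neutrophil granules and of reproductive epithelium, was at 5.09 and 0.20 FPKM (log2 ratio -4.60). In FPKM, S100a8 stood above each of Mpo, Camp, Ngp, Elane and Prtn3 in both libraries, but the cell source of S100a8 was not tested. Of 6 genes listed as neutrophil attractants and growth factors, 3 were lower and 0 higher. The whole interval lay below -0.5 for 1, the platelet chemokine gene Pf4, at 193 and 120 FPKM (log2 ratio -0.69). The other lower genes, Cxcl3 with 5 and 1 reads and Csf2 with 2 and 1 reads, had intervals that held 0. Cxcl1, from 37 and 32 reads, and Cxcl2, from 20 reads in each library, were not called. Ppbp, at 1.32 and 1.57 FPKM, was not called.

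Adipocyte markers were higher, like most of the 10 genes, and macrophage markers were lower. Of 10 adipocyte markers, 8 were higher and 0 lower, with a median log2 ratio of 0.56 and a summed level of 20091 FPKM in fl/fl and 30746 FPKM in AD1KO. Fabp4, a fatty acid carrier, was at 11151 and 15920 FPKM. Lpl had the lowest log2 ratio of the list, 0.39, and Cfd, with the highest, was at 511 and 1441 FPKM. Of 12 macrophage markers, 11 were lower and 0 higher, with a median of -1.18 and a summed level of 7191 and 3127 FPKM. Lyz2, the lysozyme gene of macrophages, was at 2341 and 1187 FPKM, and the log2 ratios ran from -2.03 for Fcgr1 to -0.48 for Mertk. In bulk tissue, more cells of a type cannot be told apart from more RNA per cell. When both libraries were scaled to the summed adipocyte markers, which moved the median of all genes to -0.65, none of the 10 genes was higher. Of all genes, 4.8% were higher on that scale and 64.3% were lower. Saa3 then had a log2 ratio of 0.03, Hp and Orm1 0.09 each, Itih4 0.18 and S100a8 0.19, while Saa1 turned to -0.089. On that scale Lcn2, Cp and S100a9 were lower, at -0.84, -1.16 and -1.40. Saa2 also passed the threshold there, at -0.58, but it rests on 5 reads in each library.

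Liver-type genes were also higher. All 10 hepatocyte markers, 5 of which (Alb, Ttr, Ahsg, Fga and Fgb) were also counted among the acute-phase proteins, were higher, with a median log2 ratio of 1.01 and a summed level of 140 FPKM in fl/fl and 505 FPKM in AD1KO. Cyp2e1, a cytochrome P450, was at 32.8 and 281 FPKM. It made up most of the sum in AD1KO but not in fl/fl, so the rise of the sum rests largely on this gene. Alb was at 40.0 and 89.6 FPKM, and Fgb, with the lowest ratio of the list, was at 3.01 and 4.64 FPKM. Saa1 and Saa2 were at 1.15 FPKM or less in both libraries, and whether liver RNA was present was not tested. Of 10 mesothelial markers 8 were higher and 0 lower, with a summed level of 105 and 189 FPKM, and Upk3b, a defining gene of mesothelium, was at 30.6 and 64.3 FPKM, while Krt18 was at 5.72 and 5.91 FPKM. Of 8 markers of reproductive epithelium, which also secretes lipocalin 2, 6 were lower and 0 higher, with a summed level of 21.9 and 11.98 FPKM, and Ovgp1 went from 3.51 to 0.17 FPKM, while Krt7 was at 7.64 and 10.25 FPKM and not called. Of 6 red cell markers, 1 was lower and 1 higher, and Hba-a1, whose hemoglobin product haptoglobin binds, was at 8549 and 6976 FPKM and not called. Hba-a2, a near copy whose reads may have been split with it, was at 239 and 913 FPKM (log2 ratio 1.93), and Hbb-b1 was at 1.03 and 0.57 FPKM. The part of any of these cell types in the levels of the 10 genes was not tested.

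Several of the 10 genes lie beside relatives in the genome. In the GENCODE annotation of mm9, Saa3 spans chr7:53967368-53971046, with Saa4 12.3 kb, Saa1 24.8 kb and Saa2 36.2 kb away. Within 250 kb of Saa3, 2 of 3 Saa genes and 0 of 8 other genes passed the threshold upward, the others having log2 ratios between -0.36 and 0.26. Those 2 were Saa1 and Saa4, and with 7 and 10 reads and 7 and 15 reads the intervals of both held 0 (-0.27 to 2.64 for Saa4), so a difference in either was not detectable at this depth. Itih4 spans chr14:31699662-31715167, and there both Itih genes, Itih3 and Itih1, and 0 of 11 other genes were higher. Around Orm1, at chr4:63005594-63009197, Orm2 and Orm3 were both past the threshold upward, although the interval of Orm3, from 14 and 26 reads, held 0 (-0.09 to 1.95). Of 6 other genes there, 2 were higher and 2 lower. Ambp, which encodes the light chain of the inter-alpha-trypsin inhibitor, had a log2 ratio of 0.86 and Akna one of -0.96. The S100 cluster was mixed: within 250 kb of S100a8, at chr3:90472993-90473956, 2 of 9 S100 genes were higher and 4 were lower, while 0 of 4 other genes were called. Both higher genes, S100a3 with 4 and 10 reads and S100a7a with 2 and 4 reads, and 1 of the lower, S100a14 with 4 and 2 reads, had intervals that held 0. Hp, at chr8:112099030-112103072, had no relative among its 8 measured neighbours. Of these, 2 were higher and 0 lower. The higher ones were Pmfbp1, at 0.21 and 0.50 FPKM, and Pkd1l3, at 0.09 and 0.23 FPKM, while the nearest, Txnl4b and Dhx38, had log2 ratios of 0.04 and -0.32.

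**Figure D4:**
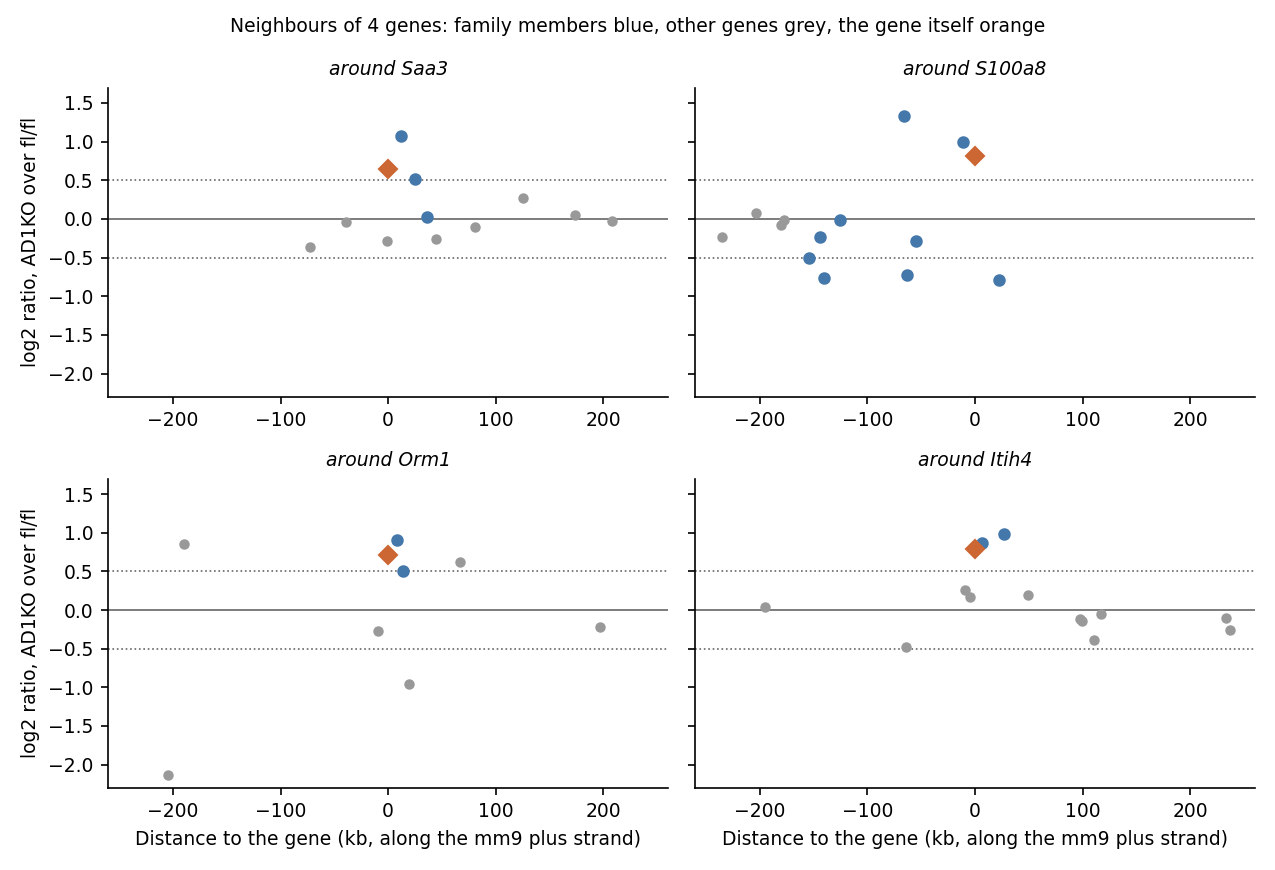
Log2 ratio of AD1KO over fl/fl for genes within 250 kb of Saa3, S100a8, Orm1 and Itih4 (1 panel each), against distance in kb, with family members in blue, other genes in grey and the gene itself in orange. Around Saa3 and Itih4 the grey points stay between -0.47 and 0.26, below the orange points at 0.64 and 0.79.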

How the data were processed

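Gene expression was measured in gWAT of fl/fl and AD1KO mice, with RNA of 4 animals pooled in 1 library per group. According to the authors' methods, reads were mapped to the mm9 build by a sequencing company. The aligner and the quantification program are not given in the sources used here. The expression columns were deposited without a unit in their header, and were taken as FPKM because a length column stands beside them and they sum to 576696 and 545463. Values of 0 were deposited as 0.01 and were set back to 0. The authors also deposited their own log2 fold change, P-value and FDR, which were not used. Bisulfite sequencing (RRBS) samples were not used here.

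Log2 ratios were computed after adding 0.01 FPKM, for genes reaching 0.1 FPKM in either library. The threshold of 0.5 follows the study's methods. Reads were estimated from FPKM steps with a length correction of 118 bases: 79.7% of low genes in fl/fl and 79.1% in AD1KO, those with under 12 reads, lay within 0.12 of a whole read. Exact 95% Clopper-Pearson intervals cover counting error only. With 1 library per group, no p-value was computed. The genes, their lists and the motifs were chosen with earlier results of these data known. Beside the 10 genes, Dnmt1 and Esr1, the rule named from each list the gene with the highest level and those with the lowest and highest ratio among those reaching 1 FPKM in either library. Further genes of the lists and neighbours were named after their values had been seen. Alternatives were other pseudocounts, filters, scalings and thresholds. The steps were tested on simulated data. Gene positions are from GENCODE M1 on mm9. Python 3.11.15, NumPy 2.4.6, pandas 2.3.3, SciPy 1.17.1, Biopython 1.88 and Matplotlib 3.10.9 were used.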

Additional observations from a re-analysis of the deposited data

How the results depend on the processing

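No paired analysis was possible because each group had a single pooled library, and for the same reason no library could be left out. Scaling to the summed adipocyte markers was chosen after seeing the data. It left 0 of the 10 genes higher, against 4.8% of all genes, and 4 lower, against 64.3%. This scaling turned the median of the 10 genes to -0.030 and turned Saa1 to -0.089. It also made 93.1% of all calls lower ones, against 57.2% as deposited. With a threshold of 1, 0 genes were higher and 0 lower, and with the whole counting interval past 0.5, 0 were lower. Upper-quartile scaling left 1 lower, since Cp came to -0.46. The 6 higher genes became 5 with a pseudocount of 0.1 or 1 FPKM, where Saa1 came to 0.47 and 0.26, and with Saa1 and Saa2 summed. Of 87 values of single genes under the alternatives, 75 moved by less than their counting interval, 11 moved further and 1 changed sign after being called. The filters and the summing of Saa1 and Saa2 leave the ratio of each gene counted as it was. Their values were bound to fall among the 75, so that count overstates how stable the ratios are. Over all genes, 3029 were lower and 2265 higher as deposited. These became 1661 and 965 with a pseudocount of 1 FPKM, 1417 and 910 with a threshold of 1, 1326 and 662 with the whole interval, and 10177 and 760 with the adipocyte scaling. With at least 1 FPKM required, 1281 were higher. Depth limits Saa1 and Saa2, and the spread between animals cannot be seen for any gene.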
